A study of Mus musculus with 10 samples.

Results

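The CD300 family is a group of immunoglobulin-type receptors of myeloid cells, and its 6 members described here, *Cd300a*, *Cd300lf*, *Cd300lb*, *Cd300ld*, *Cd300e* and *Cd300lg*, were taken by symbol from a count table of 55453 genes. The table held 12 CD300 genes in all, and the other 6, *Cd300c*, *Cd300c2*, *Cd300ld2*, *Cd300ld3*, *Cd300ld4* and *Cd300ld5*, are given beside the members. The family was singled out because *Cd300lf* was higher in every library from glatiramer acetate (GA)-treated mice, that is, it was chosen by the levels of *Cd300lf* in these libraries, so the GA against PBS values of the members are a description and carry no test. The libraries were made from microglia sorted from the hippocampus as CD45int CD11b+ cells. The mice were female 3xTg AD mice older than 15 months, which carry human transgenes driven by the Thy1.2 promoter. They received PBS (5 libraries) or 0.1 mg of GA a week (5 libraries) for about 8 weeks by the labels, and non-transgenic mice were not analysed here. The study's methods give an additional injection in the first week. The titles of the PBS libraries share the prefix 388, while GA libraries 1 and 2 carry the prefix 394 and GA libraries 3, 4 and 5 the prefix 400, so prefix and treatment cannot be told apart between PBS and GA. The labels do not say what a prefix stands for, nor that each library came from 1 animal.

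CD300 receptors bind lipids of the outer membrane leaflet, such as phosphatidylserine on dying cells, ceramide and sphingomyelin. Inhibitory members, among them *Cd300a* and *Cd300lf*, carry tyrosine motifs in their tails that recruit phosphatases, whereas activating members have short tails and signal through the adaptors *Tyrobp*, *Hcst* or *Fcer1g* and the kinase *Syk*. In microglia and macrophages the family is known for setting how strongly a cell responds to dying cells and to lipid. Apart from *Cd300lg*, a receptor of endothelial cells, the genes lie side by side on chromosome 11.

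Total counts ran from 32332185 to 38764643 per library, and 14481 genes passed a filter on low counts and were tested, 5 of the 6 members and 2 of the other 6 CD300 genes among them. Levels are given as CPM (counts scaled to library size) after TMM normalization. The microglial markers, 10 genes including *P2ry12*, *Tmem119* and *Cx3cr1*, summed to between 56188 and 66373 CPM in PBS libraries and between 57205 and 62012 CPM in GA libraries. Neutrophil markers (10 genes such as *Ngp* and *S100a9*) summed to 44.0 to 469 CPM with a median of 299 with PBS, and to 17.6 to 183 CPM with a median of 44.7 with GA. Markers of border macrophages (8 genes such as *Mrc1* and *Cd163*) reached 258 CPM in PBS library 4 and 198 CPM in GA library 4, against 49.7 to 151 CPM in the rest. All 6 mast cell markers were at 0 in every library. PBS library 4 stood apart over all genes, with a chi-square per degree of freedom of 42.3 to 50.9 against each other library, beside 13.01 to 46.2 for the pairs without it; PBS library 5 was next, with 30.1 to 49.3. Without PBS library 4 the log2 fold changes, GA against PBS, were 0.57 for *Cd300lf*, -0.09 for *Cd300a*, 0.01 for *Cd300lb*, -0.09 for *Cd300ld* and 0.90 for *Cd300e*.

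In the mouse genome (build GRCm38, GENCODE annotation) the cluster began with *Cd300a* at chr11:114890041-114904654 on the plus strand. *Cd300lb* followed at chr11:114922781-114934386, *Cd300ld* at chr11:114982274-114989922, *Cd300c2* at chr11:114996721-115001880, *Cd300e* at chr11:115051917-115062177 and *Cd300lf* at chr11:115116214-115133992, all on the minus strand. *Cd300lg* stood apart at chr11:102041509-102055620. *Cd300lf* lay within the span of *Rab37*, a gene of the opposite strand at chr11:115091431-115162236, and the pair shared 0 exonic bases. *Cd300lb* overlapped the pseudogene *Gm11699* on the opposite strand, also with 0 shared exonic bases; it had 29 reads in the PBS and 63 reads in the GA libraries. The counting was not stated to use strand. *Rab37* itself stood at 0.438 ± 0.173 CPM with PBS and 0.445 ± 0.181 CPM with GA (mean ± SD, n = 5). Its part in the reads of *Cd300lf* was not tested.

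The promoters of 5 family genes are shown because they belong to the 2 most abundant genes (*Cd300c2* and *Cd300a*), to the gene for which the family was chosen (*Cd300lf*), to its neighbour in the order of levels per length (*Cd300lb*) and to the member whose promoter held the motif most often (*Cd300ld*). Each window runs 5′ to 3′ on the gene's strand from 250 bases before to 50 bases after the RefSeq start (GRCm38.p6), and capitals mark AGGAAGT or its reverse complement, letters that contain the core bound by ETS factors such as the microglial regulator PU.1 (*Spi1*). The windows are chr11:115133943-115134242 for *Cd300lf*, chr11:114934322-114934621 for *Cd300lb*, chr11:114989837-114990136 for *Cd300ld*, chr11:114889791-114890090 for *Cd300a* and chr11:115001831-115002130 for *Cd300c2*.
Cd300lf: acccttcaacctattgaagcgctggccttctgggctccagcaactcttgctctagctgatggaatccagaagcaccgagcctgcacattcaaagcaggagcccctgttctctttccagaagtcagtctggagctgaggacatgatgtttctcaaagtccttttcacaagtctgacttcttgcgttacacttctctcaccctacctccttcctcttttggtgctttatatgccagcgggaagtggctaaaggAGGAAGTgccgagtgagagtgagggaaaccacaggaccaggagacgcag
Cd300lb: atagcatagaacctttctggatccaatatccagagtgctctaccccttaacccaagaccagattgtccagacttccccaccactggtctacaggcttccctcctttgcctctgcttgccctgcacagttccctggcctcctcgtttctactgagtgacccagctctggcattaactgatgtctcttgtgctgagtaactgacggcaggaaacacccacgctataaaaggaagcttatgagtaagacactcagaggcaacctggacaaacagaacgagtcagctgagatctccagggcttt
Cd300ld: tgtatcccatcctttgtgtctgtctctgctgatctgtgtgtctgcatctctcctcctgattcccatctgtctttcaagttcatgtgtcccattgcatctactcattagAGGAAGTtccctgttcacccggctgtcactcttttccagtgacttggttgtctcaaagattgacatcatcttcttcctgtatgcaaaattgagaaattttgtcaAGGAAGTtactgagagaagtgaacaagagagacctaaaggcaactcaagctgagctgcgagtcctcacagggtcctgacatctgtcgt
Cd300a: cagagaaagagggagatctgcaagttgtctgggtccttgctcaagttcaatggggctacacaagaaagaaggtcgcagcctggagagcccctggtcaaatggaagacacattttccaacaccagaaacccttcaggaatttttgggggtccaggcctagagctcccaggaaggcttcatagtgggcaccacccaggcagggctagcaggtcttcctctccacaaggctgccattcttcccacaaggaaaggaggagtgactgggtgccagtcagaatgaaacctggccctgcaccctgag
Cd300c2: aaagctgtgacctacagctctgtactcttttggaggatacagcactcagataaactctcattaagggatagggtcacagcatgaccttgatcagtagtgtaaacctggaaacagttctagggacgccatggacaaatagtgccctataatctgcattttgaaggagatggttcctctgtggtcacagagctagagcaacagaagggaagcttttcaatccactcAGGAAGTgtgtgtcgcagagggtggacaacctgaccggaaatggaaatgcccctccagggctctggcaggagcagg

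A RefSeq promoter was found for 10 of the 12 CD300 genes, 5 members among them. On either strand AGGAAGT was present in 7 of these 10 promoters, beside 9.35% of 32851 mouse promoters of the same length. The 7 were not independent, as *Cd300ld*, *Cd300ld3*, *Cd300ld4* and *Cd300ld5* held their 2 matches each within shared stretches of sequence. No enrichment is read from the count. Of the members, *Cd300ld* held 2 matches, and *Cd300lf* and *Cd300e* 1 each. The match of *Cd300lf* began 1 base after the start site, that of *Cd300c2* 26 bases before it. The *Cd300a* promoter held none, and the promoters of *Cd300ld3*, *Cd300ld4* and *Cd300ld5*, which are close copies of each other, held 2 each. TATAAA, the core of the TATA box, was found on either strand in 2 of the 10 promoters, beside 13.6% of all promoters: on the strand of the gene in *Cd300lb*, and only as the reverse complement in *Cd300lf*. The letters TTC and GAA with 4 bases of any kind between them, the spacing favoured by *Stat6*, were in 0 of the 10 windows, beside 6.95% of all promoters. These matches describe letters in a window and not binding. The promoters of *Cd300ld4* and *Cd300ld5* were identical over 300 bases, and *Cd300ld3* matched them at 285 of the 300.

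Near-identical family members can lose or trade reads, which were 100 nt long and single end. Of the 100-base words of its transcripts, *Cd300ld5* shared 100% with another gene, *Cd300ld4* 86.7% and *Cd300ld3* 80.9%, so their counts of 0 to 7 reads are uncertain. Among the members the shared portion was small, 1.37% for *Cd300ld* and 0.644% for *Cd300lf* (with each other) and 0.849% for *Cd300a* (with *Cd300c2*), and it was 0% for *Cd300lb*, *Cd300e* and *Cd300lg*.

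**Figure D1:**
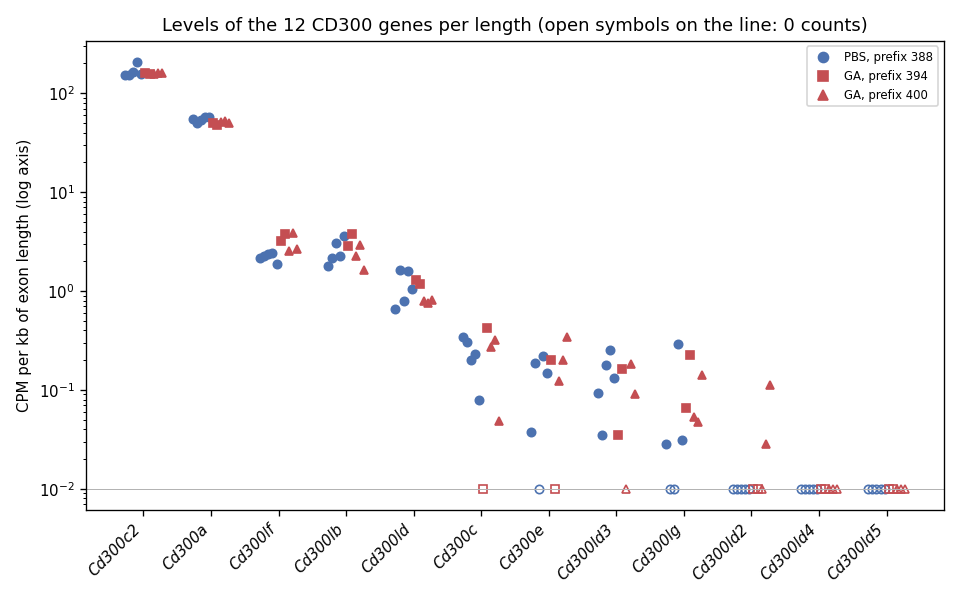
Levels of the 12 CD300 genes in CPM per kilobase of merged exon length (log axis), 1 symbol per library, with circles for PBS and squares and triangles for GA of prefix 394 and 400; open symbols on the grey line had 0 counts. *Cd300c2* and *Cd300a* stand far above the rest, the symbols of *Cd300lf* and *Cd300lb* overlap, and *Cd300ld* lies under both in each library.

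In these microglia the family was carried by an activating and an inhibitory receptor. *Cd300a* took 51.7% of all CD300 reads and *Cd300c2*, an activating receptor that pairs with *Fcer1g*, took 43.0%, while *Cd300lf* took 2.91%, *Cd300lb* 1.6% and *Cd300ld* 0.576%. Per kilobase of exon, the level was 163 CPM for *Cd300c2* and 52.5 CPM for *Cd300a*, which ranked 185 and 742 among the tested genes, within the top 1.29% and 5.17%. *Cd300lf* stood at 2.71 CPM per kilobase, *Cd300lb* at 2.63, *Cd300ld* at 1.05, *Cd300e* at 0.147 and *Cd300lg* at 0.0887. The order was compared over all 10 libraries on the log2 scale per length (pseudocount 0.1 CPM) by a two-sided exact sign-flip permutation test, adjusted over 5 neighbouring pairs. The smallest p this test can give is 0.00195. The pairs were set by the mean levels in these same libraries. Both pairs with *Cd300lf* also draw on the GA levels for which the family was chosen, so their p-values are a description. *Cd300a* exceeded *Cd300lf* by 4.30 ± 0.41 (SD, higher in 10 of 10 libraries, exact adjusted p = 0.00326). *Cd300lf* and *Cd300lb* were not separated (difference 0.04 ± 0.45, higher in 7 of 10 libraries, exact adjusted p = 0.770). With the longest transcript as length *Cd300lf* was higher by 0.41, a value that holds the GA levels for which it was chosen. The means of this pair stood in opposite order in the groups, a difference chosen with the values of *Cd300lf* and not tested: of the summed CD300 level per kilobase, *Cd300lb* made up 1.14% ± 0.348 and *Cd300lf* 0.974% ± 0.103 with PBS, and 1.24% ± 0.374 and 1.48% ± 0.269 with GA (SD, n = 5). *Cd300lb* exceeded *Cd300ld* by 1.31 ± 0.54, and *Cd300ld* exceeded *Cd300e* by 2.71 ± 1.05, both in 10 of 10 libraries (exact adjusted p = 0.00326 each). *Cd300e* and *Cd300lg* differed by 0.72 ± 1.38 (exact adjusted p = 0.159), and this pair passed the threshold with larger pseudocounts or without GA library 2.

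The 2 inhibitory members had fold changes of opposite sign in the GA libraries. *Cd300lf*, which also contains a site for phosphatidylinositol 3-kinase and is known as a partner of the interleukin-4 receptor, was counted 339 to 751 times. Its level in PBS libraries 1 to 5 was 11.1, 11.7, 12.1, 12.4 and 9.61 CPM, and in GA libraries 1 to 5 it was 16.7, 19.4, 12.97, 19.7 and 13.8 CPM. All 5 GA libraries lay above every PBS library, but at the boundary the gap was narrow: PBS library 4 (12.4 CPM, exact 95% Poisson interval 11.2 to 13.6) and GA library 3 (12.97 CPM, 11.8 to 14.2) overlapped within counting error. The group means were 11.4 ± 1.08 CPM with PBS and 16.5 ± 3.09 CPM with GA (SD, n = 5), a ratio of 1.45 and a log2 fold change of 0.54 (SE 0.138). The spread of the GA libraries was thus wider than that of the PBS libraries. Scaled by total counts alone, the highest PBS and the lowest GA library stood at 12.3 and 12.8 CPM.

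No overlap between the groups was found for 129 of 14481 genes, 0.891% of them, and all GA libraries lay above all PBS libraries for 63 genes, 0.435%; as *Cd300lf* was chosen for this pattern, nothing is read from its place among them. Against PBS, the log2 fold change of *Cd300lf* was 0.67 for the GA libraries of prefix 394 alone and 0.45 for those of prefix 400 alone. Neutrophils also express this receptor. The sort took CD45int cells, and neutrophil markers were counted in every library. They were lower with GA, with all 9 tested markers of 10 at a negative fold change. By edgeR, 7 had an unadjusted p under 0.05, beside 5.75% of all 14481 genes, and 0 an adjusted p under 0.05. *Cxcr2* was at 0 in 1 PBS and 1 GA library. Of the 8 tested monocyte markers, 3 were lower and 1 was higher with GA at an unadjusted p under 0.05 by edgeR. The 2 GA libraries highest in *Cd300lf*, 2 and 4, had summed neutrophil markers of 183 and 29.8 CPM and border macrophage markers of 89.7 and 198 CPM. Their part in the level of *Cd300lf* was not tested. In bulk RNA, fewer cells of a type and less RNA per cell cannot be told apart.

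*Cd300a*, which binds phosphatidylserine and phosphatidylethanolamine, was counted 7825 to 9831 times. PBS libraries 1 to 5 stood at 257, 238, 252, 274 and 273 CPM, and GA libraries 1 to 5 at 235, 228, 245, 249 and 239 CPM. The groups overlapped, with 2 GA libraries below every PBS library. The means were 259 ± 15.1 CPM with PBS and 239 ± 8.46 CPM with GA (SD, n = 5), a log2 fold change of -0.12 (SE 0.060). The ratio of *Cd300lf* to *Cd300a* within a library, which no scaling between libraries touches, was 3.53 to 4.90 *Cd300lf* reads per 100 *Cd300a* reads with PBS and 5.29 to 8.52 with GA. This ratio, too, rests on the contrast that chose the family.

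**Figure D2:**
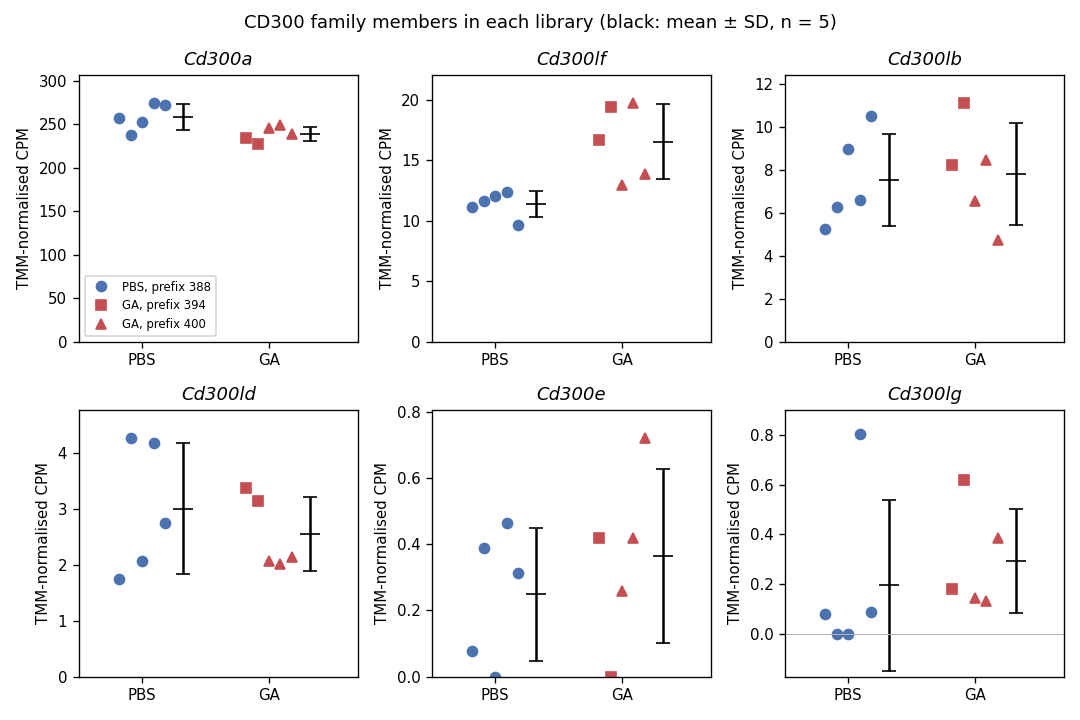
TMM-normalised CPM (linear axes from 0 or, where the error bar passes it, below) of the 6 members in each library, PBS on the left and GA on the right of each panel, squares for prefix 394 and triangles for prefix 400, with the mean and SD of 5 libraries in black. The GA symbols of *Cd300lf* sit between 12.97 and 19.7 CPM, above all PBS symbols, and the groups of the other 5 members overlap.

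The activating members overlapped between the groups. *Cd300lb*, which signals through *Tyrobp* and has been tied to responses to lipopolysaccharide, stood at 5.26, 6.30, 9.01, 6.63 and 10.5 CPM in PBS libraries 1 to 5 and at 8.24, 11.1, 6.56, 8.47 and 4.76 CPM in GA libraries 1 to 5. The highest and the lowest library of the series were both GA libraries. Its means were 7.54 ± 2.15 CPM and 7.83 ± 2.37 CPM (log2 fold change 0.05, SE 0.235), and leaving out 1 library moved the fold change between -0.11 and 0.21. *Cd300ld*, which pairs with *Fcer1g*, stood at 1.75, 4.27, 2.08, 4.18 and 2.75 CPM with PBS and at 3.39, 3.14, 2.08, 2.02 and 2.14 CPM with GA. The 2 highest values belonged to PBS libraries 2 and 4, and the GA libraries of prefix 400 were close to each other. The means were 3.01 ± 1.17 CPM and 2.55 ± 0.657 CPM (log2 fold change -0.24, SE 0.293), and leaving out 1 library moved the fold change between -0.38 and -0.07 (-0.07 without PBS library 2 and -0.09 without PBS library 4).

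*Cd300e*, an activating receptor of monocytes, was close to the limit of detection with 109 reads in 10 libraries. It had 3, 13, 0, 15 and 11 reads in PBS libraries 1 to 5 and 14, 0, 9, 16 and 28 reads in GA libraries 1 to 5. The upper bound of the exact 95% Poisson interval of a count of 0 is 0.113 CPM in PBS library 3 and 0.104 CPM in GA library 2. The means were 0.249 ± 0.201 CPM and 0.364 ± 0.263 CPM, a log2 fold change of 0.55 with an SE of 0.835. The coefficient of variation over the 10 libraries was 74.7%, beside 30.3% from counting alone if every read were an independent molecule. *Cd300lg* did not pass the filter on low counts and was left out of the main edgeR fit. It had 85 reads in all, 3, 0, 0, 26 and 3 in PBS libraries 1 to 5 and 6, 22, 5, 5 and 15 in GA libraries 1 to 5. PBS library 4 alone held more reads than the other 4 PBS libraries together. The 7 endothelial markers summed to 38.5 to 51.2 CPM with PBS and 36.6 to 50.6 CPM with GA, most of it from *Pecam1* (30.3 ± 4.82 and 28.9 ± 4.66 CPM) and *Flt1* (10.5 ± 3.19 and 13.5 ± 2.64 CPM), while *Slco1a4* was at 0 in every library and *Cldn5* at 0.0489 ± 0.109 and 0.00515 ± 0.0115 CPM. Their part in the reads of *Cd300lg* was not tested.

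*Cd300c2* was not among the members and was tested. It stood at 194, 196, 211, 264 and 199 CPM in PBS libraries 1 to 5 and between 201.8 and 202.9 CPM in all 5 GA libraries. PBS library 4 was thus the one that stood off. The log2 fold change was -0.07 (SE 0.082; edgeR's quasi-likelihood test, Benjamini-Hochberg adjusted p = 0.945), and without PBS library 4 it was 0.02. *Cd300c*, a further activating receptor, had at most 16 reads in a library and means of 0.248 ± 0.110 CPM with PBS and 0.226 ± 0.193 CPM with GA (edgeR adjusted p = 0.986). Summed over all 12 genes, the family took 494 ± 41.4 CPM with PBS and 469 ± 8.10 CPM with GA, of which *Cd300a* and *Cd300c2* held 95.4% ± 0.406 and 94.1% ± 1.19 (SD, n = 5).

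**Figure D3:**
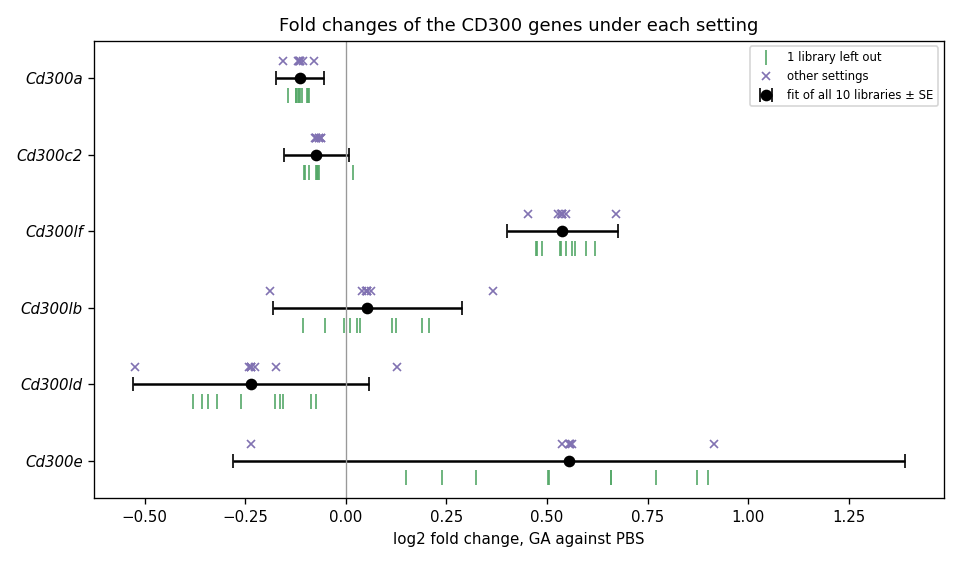
Log2 fold change, GA against PBS, of 6 CD300 genes; black points with bars are the fit of all 10 libraries ± SE, green ticks leave out 1 library each and purple crosses are the other settings, the GA libraries of a single prefix included. All values of *Cd300lf* lie between 0.45 and 0.67, with a sign fixed by the choice of the family, while those of *Cd300lb*, *Cd300ld*, *Cd300e* and *Cd300c2* fall on both sides of 0.

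The GA libraries of the 2 prefixes were compared with each other, a contrast that did not serve to choose the family. At an adjusted p under 0.05, edgeR called 2 genes, 0.0138% of 14481, and 793 genes, 5.48%, had an unadjusted p under 0.05. None of the 5 tested members was in either count. For *Cd300lb* the mean was 9.68 CPM with prefix 394 (2 libraries) and 6.59 CPM with prefix 400 (3 libraries), a log2 fold change of -0.55 (SE 0.311; edgeR unadjusted p = 0.0983, adjusted p = 0.982). For *Cd300lf* the means were 18.0 and 15.5 CPM (log2 fold change -0.22, SE 0.194; edgeR adjusted p = 0.9996). With 1 GA library left out, the prefix difference ranged from -0.78 to -0.32 for *Cd300lb* and from -0.43 to -0.10 for *Cd300lf*. Against PBS, *Cd300ld* stood at 0.13 for prefix 394 alone and at -0.52 for prefix 400 alone on the log2 scale, *Cd300lb* at 0.37 and -0.19, and *Cd300e* at -0.24 and 0.91. The sign of the treatment difference of these 3 members thus depended on the GA libraries taken. For *Cd300e* the difference between the prefixes was 1.16 (SE 1.25; edgeR adjusted p = 0.9996) by edgeR and 2.52 by limma-voom. With 1 GA library left out it ranged from 0.16 to 7.06, the latter without GA library 1, which leaves prefix 394 with 0 reads, so that this fitted value is no measure of size.

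Within a treatment group, no correlation between members passed the test. Over the 10 pairs of the 5 tested members, 0 had an adjusted or an unadjusted p under 0.05 (two-sided exact permutation within groups, 14400 arrangements, 10 libraries centred on their group means). The Pearson correlation farthest from 0 was that of *Cd300lb* and *Cd300e* (r = -0.47, exact p = 0.191, adjusted p = 0.632; Spearman's rho = -0.50, exact p = 0.169, adjusted p = 0.706), and it fell to r = -0.02 without the 2 libraries farthest from the median of *Cd300lb*. By rank, *Cd300ld* and *Cd300e* were farthest from 0 (rho = 0.53, exact p = 0.142, adjusted p = 0.706; r = 0.31, exact p = 0.412, adjusted p = 0.632), with r = -0.15 after the like removal. For *Cd300a* and *Cd300e* (r = 0.37, exact p = 0.309, adjusted p = 0.632; rho = 0.41, exact p = 0.265, adjusted p = 0.706) the removal took r to 0.73. *Cd300a* and *Cd300lf* gave r = -0.24 (exact p = 0.443, adjusted p = 0.632; rho = -0.18, exact p = 0.614, adjusted p = 0.952).

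The genes whose levels followed *Cd300lf* most closely over the 10 libraries were *Gm16386* (Pearson's r = 0.87), *Cstf3* (0.87), *Gpx3* (0.86), *Zmynd8* (0.85) and *Csf3r* (0.85), given as a description since the groups differ in *Cd300lf* itself. *Cstf3*, a subunit of a factor for cleavage and polyadenylation of RNA, stood at 32.2 ± 2.36 CPM with PBS and 39.5 ± 2.33 CPM with GA, without overlap. *Csf3r*, the receptor of granulocyte colony-stimulating factor, stood at 844 ± 42.8 CPM and 967 ± 49.8 CPM, with overlap. Of the family, *Cd300a* was near the opposite end of this ranking, at place 14283 of 14480, with r = -0.65.

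Genes of CD300 signalling and ligands, and other myeloid receptors listed with them, were not called between PBS and GA. The 10 lists, 9 of signalling partners, ligand enzymes and lipid receptors and 1 of other inhibitory or paired receptors, held 91 genes, of which 84 were tested. At an adjusted p under 0.05, edgeR called 0 of the 84, beside 0 of all 14481 genes (0.0%), and the smallest adjusted p in the lists was 0.854. At an unadjusted p under 0.05 there were 5 of 84, 5.95%, beside 833 of 14481 genes, 5.75%, a share close to the background. DESeq2 with its defaults called 2 genes in the table, none of them in the lists. None of the 84 separated the groups without overlap, beside 0.891% of all genes tested. Their median log2 fold change was -0.00073, beside 0.0002 over all genes tested.

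Of the 3 adaptors of the activating members, *Tyrobp* and *Fcer1g* were abundant and *Hcst* was low, and none had an unadjusted p under 0.05. *Tyrobp*, an adaptor of *Cd300lb*, stood at 991 ± 104 CPM with PBS and 1059 ± 44.2 CPM with GA (SD, n = 5). *Fcer1g*, an adaptor of *Cd300ld* and *Cd300c2*, stood at 820 ± 116 CPM and 785 ± 24.0 CPM. *Hcst* stood at 8.49 ± 2.96 CPM and 8.06 ± 0.716 CPM. Among the 10 kinases and effectors downstream, 2 had an unadjusted p under 0.05, in opposite directions. *Card9*, which links *Syk* to NF-kappaB, stood at 24.9 ± 6.50 CPM with PBS and 33.4 ± 6.55 CPM with GA (log2 fold change 0.43, SE 0.176; edgeR unadjusted p = 0.0292, adjusted p = 0.854). The adaptor *Blnk* stood at 440 ± 49.6 CPM and 389 ± 16.1 CPM (log2 fold change -0.18, SE 0.074; edgeR unadjusted p = 0.0316, adjusted p = 0.854). *Syk* itself stood at 225 ± 8.35 CPM and 221 ± 21.6 CPM, and the Src-family kinase *Lyn* at 796 ± 58.2 CPM and 787 ± 64.3 CPM.

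The phosphatases recruited by the inhibitory members had positive fold changes in 3 of 3 genes, with 0 at an unadjusted p under 0.05. *Inpp5d* stood at 1303 ± 57.5 CPM with PBS and 1330 ± 108 CPM with GA, *Ptpn6* at 574 ± 30.5 CPM and 616 ± 38.8 CPM, and *Ptpn11* at 21.6 ± 5.52 CPM and 21.9 ± 1.86 CPM. Of the 7 genes for phosphatidylinositol 3-kinase subunits and adaptors, such as *Pik3ap1* at 547 ± 21.5 CPM and 545 ± 26.0 CPM, 0 had an unadjusted p under 0.05. Of the 6 genes of the interleukin-4 receptor pathway, *Jak3* stood at 185 ± 30.7 CPM with PBS and 217 ± 14.8 CPM with GA (log2 fold change 0.23, SE 0.100; edgeR unadjusted p = 0.0361, adjusted p = 0.854). The receptor chain *Il4ra* stood at 301 ± 23.4 CPM and 317 ± 20.5 CPM, and *Stat6* at 344 ± 22.4 CPM and 348 ± 30.5 CPM. Of the 6 genes around *Tlr4*, which *Cd300lb* is known to join, 0 had an unadjusted p under 0.05, and *Cd14* was the most abundant, at 906 ± 177 CPM and 954 ± 176 CPM.

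Genes that place the ligands on the cell surface were next. Of the 6 tested genes of phospholipid exposure, the scramblase *Xkr8* stood at 18.4 ± 1.63 CPM with PBS and 21.8 ± 2.97 CPM with GA (log2 fold change 0.24, SE 0.110; edgeR unadjusted p = 0.0431, adjusted p = 0.854). Of the 11 tested genes for other receptors and bridges of phosphatidylserine, 0 had an unadjusted p under 0.05, with *Trem2* at 1623 ± 124 CPM and 1661 ± 166 CPM and *Mertk* at 978 ± 10.5 CPM and 997 ± 66.8 CPM. These 11 genes had 9 positive and 2 negative fold changes. Of the 18 tested enzymes of sphingolipid metabolism, which make and remove ceramide and sphingomyelin, 13 had negative and 5 positive fold changes. Their median log2 fold change was -0.025, and 1 had an unadjusted p under 0.05. *Sptlc1*, a subunit of the enzyme that starts the pathway, stood at 52.6 ± 3.82 CPM and 45.9 ± 3.94 CPM (log2 fold change -0.19, SE 0.081; edgeR unadjusted p = 0.0309, adjusted p = 0.854), and *Asah1*, the acid ceramidase, at 794 ± 69.3 CPM and 783 ± 28.5 CPM. Of 14 other inhibitory or paired receptors of myeloid cells, 0 had an unadjusted p under 0.05. *Sirpa* was the most abundant, at 4715 ± 328 CPM with PBS and 4571 ± 240 CPM with GA.

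**Figure D4:**
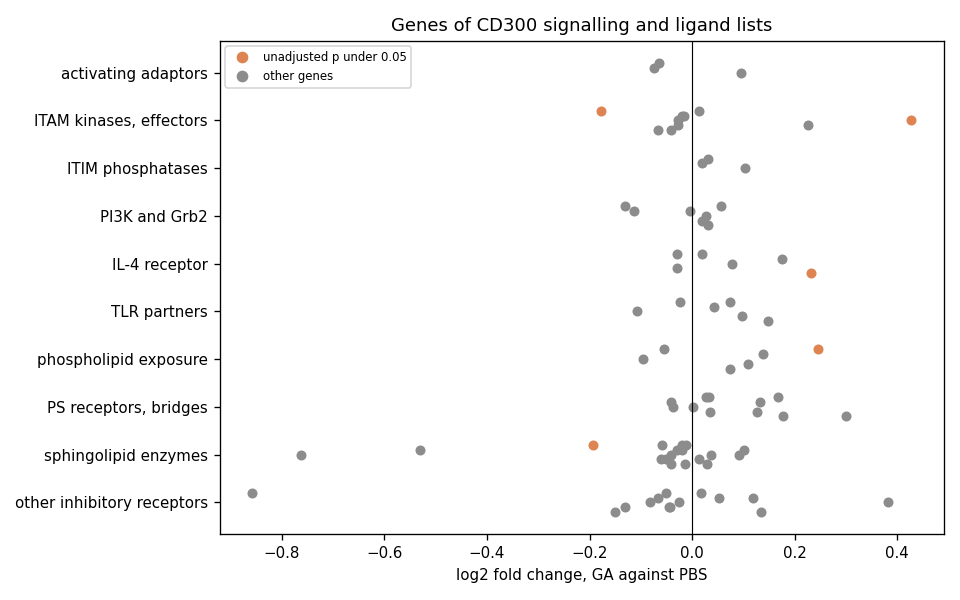
Log2 fold change, GA against PBS, of the tested genes of 10 lists of CD300 signalling partners, ligand enzymes and other receptors, 1 point per gene, with orange for an unadjusted p under 0.05. The points scatter on both sides of 0 in every list but the 3 phosphatases, and the 5 orange genes split into 3 higher and 2 lower.

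Of the nearest genes along the chromosome, those that were tested were not called. *Slc9a3r1*, next to *Rab37*, stood at 56.8 ± 4.60 CPM with PBS and 55.8 ± 6.69 CPM with GA (edgeR adjusted p = 0.981), and *Gprc5c*, next to *Cd300a*, at 0.763 ± 0.637 CPM and 0.449 ± 0.294 CPM (edgeR adjusted p = 0.944). *Rab37*, which encloses *Cd300lf*, had 7 to 24 reads in a library (edgeR adjusted p = 0.997). The pseudogene Gm11698, between *Cd300a* and *Cd300lb*, had 2 reads in the PBS and 1 read in the GA libraries, and E130111B04Rik, next to *Cd300lg*, had 0 reads. On the other side of *Cd300lg*, Mpp2 was too low to be tested, at 0.205 ± 0.216 CPM with PBS and 0.0399 ± 0.0558 CPM with GA.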

How the data were processed

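RNA of sorted hippocampal microglia was pre-amplified (SMARTer Ultra Low Input v4) and sequenced as single-end reads of 100 nt. The authors deposited whole-number counts of reads per gene, without normalization. The submitters' processing notes name bcl2fastq 2.19.0, fastp 0.20.0, STAR 2.7.0f, featureCounts of Subread 1.6.4, DESeq2 and GRCm38.p6. The annotation release and the use of strand are not given in the sources used here. Groups came from the treatment label of each sample.

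Counts were filtered with filterByExpr (minimum count 10), normalized by TMM and tested with edgeR 4.0.16's quasi-likelihood test with Benjamini-Hochberg adjustment and a threshold of 0.05, in R 4.3.3; limma 3.58.1 and DESeq2 1.42.0 served as alternatives. Single values were computed with Python 3.11.15, numpy 2.4.6, scipy 1.17.1 and pandas 2.3.3. The fits were tested on simulated data. Lengths were merged exons of GENCODE M21, and 99.1% of the tested genes had one. Counting intervals are exact Poisson intervals at 95% and leave out amplification, as the reads carry no molecular identifiers.

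Named genes are the members, the other CD300 genes, list genes at an adjusted or else an unadjusted p under 0.05, up to 4 abundant genes of each list, the genes that overlap or neighbour a member, and the 5 genes most correlated with *Cd300lf*. The members and lists were chosen with earlier results of these data known. P-values measure the spread between libraries, which the labels do not say are separate animals; the chi-square per degree of freedom of the 45 library pairs was 13.0 to 50.9, so none were copies. No library was left out. Alternatives were other scalings, filters and tools, single title prefixes, pseudocounts of 0.5 and 1 CPM beside 0.1 CPM, transcript lengths and each library left out.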

Additional observations from a re-analysis of the deposited data

Results flagged for a closer look

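Among 14 groups of 5 libraries (6 members and *Cd300c2*, each treatment), 2 held a library whose gap to its nearest neighbour, divided by the range of the group, exceeded the critical value of 0.71 of Dixon's test at 95%; chance alone sets apart about 1 in 20 groups. Both concern PBS library 4, which also stood apart over all genes (chi-square per degree of freedom of 42.3 to 50.9 with every other library). For *Cd300lg* it stood at 0.806 CPM (26 reads) against at most 0.0850 CPM in the other PBS libraries, a gap of 0.894 of the range. For *Cd300c2* it stood at 264 CPM against at most 211 CPM in the others, a gap of 0.747 of the range. The same library was the highest of the series in summed border macrophage markers (258 CPM) and monocyte markers (90.6 CPM) and the highest in summed endothelial markers (51.2 CPM); their part in either value was not tested.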

How the results depend on the processing

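The log2 fold change of *Cd300lf*, whose sign was fixed by how the family was chosen, ranged from 0.47 to 0.62 with 1 library left out, and the gap between the lowest GA and the highest PBS library remained under DESeq2's size factors and under total counts, a scaling chosen after seeing the data. The sign of *Cd300lb*, *Cd300ld* and *Cd300e* depended on the libraries taken. For *Cd300c2* the fold change lay between -0.105 and 0.0174 with 1 library left out, and was above 0 without PBS library 4 alone. Genes called for GA against PBS numbered 0 by edgeR, 2 by DESeq2 with its defaults, and 0 to 1 with 1 library left out (1 without GA library 1); for prefix 400 against 394 they numbered 2 by edgeR, 64 by DESeq2, and 0 to 3 with 1 library left out (0 without GA library 1 and 1 without GA library 4). Of the 84 tested genes of the 10 lists, 0 were called under any alternative, and 0 to 7 had an unadjusted p under 0.05 with 1 library left out (0 without PBS library 4 or GA library 3). The difference between *Cd300lf* and *Cd300lb* per length reversed to -0.0312 with a pseudocount of 1 CPM and ranged from -0.0301 (without GA library 5) to 0.153 with 1 library left out. The cause of these shifts was not tested. The order of levels, a description where *Cd300lf* takes part, separated 3 pairs, and 3 to 4 with 1 library left out. No paired analysis was possible because the labels give no pairing: the number after the prefix recurs within the GA group and only names a library. *Cd300e* and *Cd300lg* had at most 28 reads in a library; counting alone, with reads taken as independent, gives them a coefficient of variation of 30.3% and 34.3%, beside 74.7% and 113% observed, and the share of amplification was not tested.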

Other observations

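The 5 GA libraries gave *Cd300c2* levels between 201.8 and 202.9 CPM, a range narrower than the counting interval of a single library: with 6753 to 7867 reads each, the exact 95% Poisson interval of GA library 1 alone runs from 198 to 207 CPM. The 5 PBS libraries spanned 194 to 264 CPM. For *Cd300a*, counted about as often, the GA libraries spanned 228 to 249 CPM. This pattern was picked out after the values were seen and was not tested.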
